A study of Arabidopsis thaliana with 12 samples.

Results

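The xyloglucan endotransglucosylase/hydrolase (XTH) family of Arabidopsis thaliana was followed in seedlings that lack the auxin response factor ARF2, the GATA transcription factors GNC and GNL, or that carry both labels. Its members were taken as every array probe assigned to the loci of XTH1 to XTH33, which gave 42 probes for 33 genes of the 25383 loci on the array. Of these genes, 29 were tested, 28 of them well above background on all 12 arrays and XTH13 on 9. XTH1, XTH2, XTH3 and XTH29 were not well above background on any array and have no measured change. Total RNA from whole seedlings aged 10 days was labelled with 1 dye and hybridised to Agilent arrays, with 3 samples in each of 4 genotypes. These were arf2-8, the gnc gnl double mutant, seedlings labelled as the triple mutant arf2-8 gnc gnl, and wild type (WT). The labels give no allele for gnc or gnl. All groups were in the Columbia (Col-0) background, received no treatment and were collected midway through a long day. The design text calls the 3 samples of a genotype independent biological samples.

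XTH enzymes act in the cell wall on xyloglucan, the hemicellulose that coats and tethers cellulose microfibrils. They cut a xyloglucan chain and join the new end to another chain, and some members instead hydrolyse the chain with water, so that the family can both loosen a wall and strengthen it. The members differ in where they are made: several are known from roots and root hairs, and others from growing shoots, veins or flowers, and several respond to auxin, brassinosteroid, touch or shade. ARF2 is a transcription factor of the auxin response, generally described as a repressor, and GNC and GNL are a pair of related factors that promote greening.

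As a check of the labels, ARF2 stood at 2.08%, 0.392% and 3.04% of the WT mean in the 3 arf2 libraries. GNC stood at 4.42%, 5.90% and 3.92% and GNL at 6.73%, 2.30% and 2.39% in the 3 gnc gnl libraries. In the libraries with the triple label, GNC was at 6.38%, 5.66% and 5.62%, but ARF2 was at 56.7%, 54.4% and 70.6% and GNL at 168%, 179.8% and 180.1% of the WT mean. The probes of ARF2 and GNL thus go against that label, so this group goes by "the libraries labelled arf2 gnc gnl". The 12 arrays were printed on 3 slides. On slide 1, arf2 replicate 1 lay beside the 3 WT arrays. The other 2 arf2 arrays shared slide 2 with labelled replicates 1 and 2, while labelled replicate 3 shared slide 3 with all gnc gnl arrays. Between 64.6% and 70.2% of probes were well above background on an array, and arrays of 1 genotype correlated at 0.988 to 0.996 over the tested genes.

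The XTH members that passed the test against WT were lower in arf2 and higher in gnc gnl. In arf2 seedlings 6 of the 29 tested members were lower than in WT, and none was higher, at an adjusted p under 0.05 by limma (Benjamini-Hochberg adjustment over all 19020 tested genes). Of all tested genes 3.2% were lower and 2.48% higher in that comparison. In gnc gnl seedlings 11 of 29 members were higher than in WT and none was lower, beside 12.6% of all tested genes higher and 11.9% lower. At an unadjusted p under the same threshold, 2 members were higher and 10 lower in arf2 (19% of all tested genes in either direction), and 14 were higher and 0 lower in gnc gnl (38.1% of all tested genes). The median log2 change of the 29 members was -0.28 in arf2 and 0.34 in gnc gnl, while the median over all tested genes was -0.0029 and 0.0070. Both comparisons use the same 3 WT arrays. No slide held both gnc gnl and WT arrays. With slide as a fixed block 2 members were called in arf2 and 0 in gnc gnl. That fit called 2.37% and 0.152% of all tested genes in these comparisons. Without the libraries labelled arf2 gnc gnl in the fit, 4 members were called lower and 1 higher in arf2, and 9 were called higher in gnc gnl. That fit called 3.49% of all tested genes in arf2 and 21.4% in gnc gnl, in either direction. The arf2 count was 3 without WT replicate 1, WT replicate 2, arf2 replicate 1 or arf2 replicate 2. These fits called 2.32% to 3.84% of all tested genes, against 5.68% in the full fit.

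**Figure D1:**
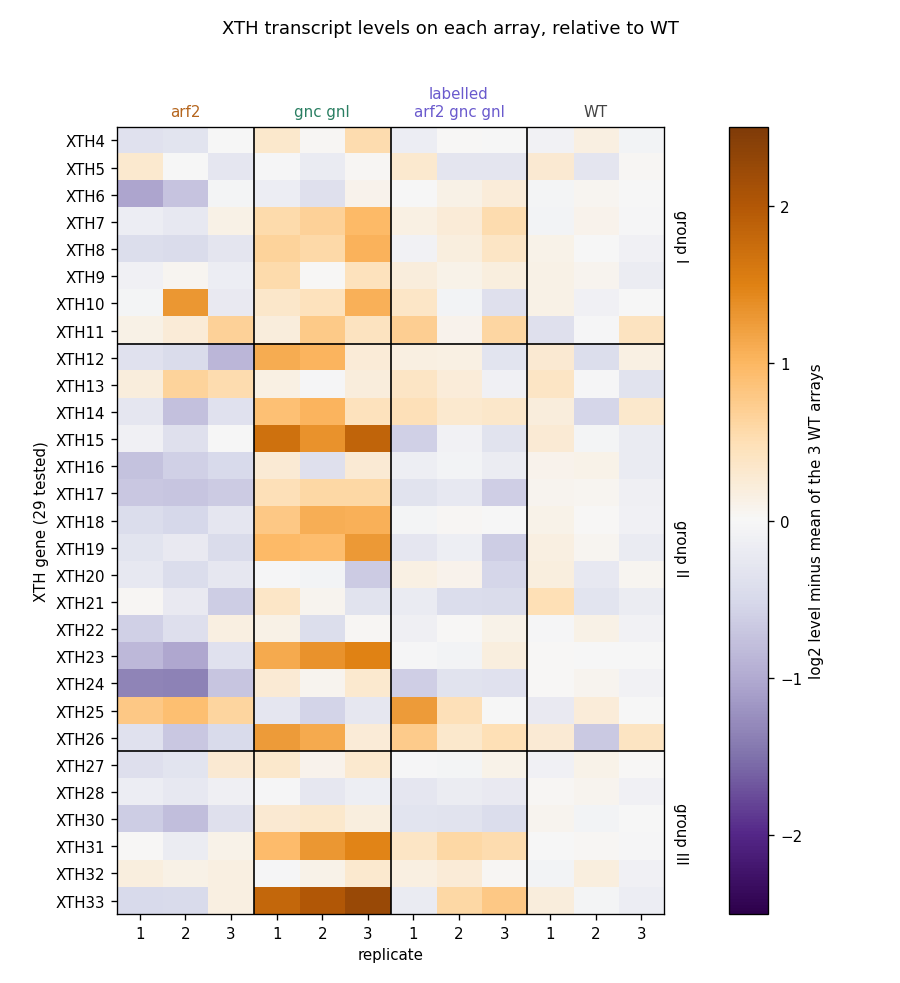
Levels of the 29 tested XTH genes (rows, in the order of their numbers, with lines between groups I, II and III) on each of the 12 arrays (columns, by genotype and replicate), as the log2 level minus the mean of the 3 WT arrays. The gnc gnl columns hold the deepest orange, up to XTH33 and XTH15, and the arf2 columns hold the deepest purple, at XTH24.

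The family is usually divided by sequence into 3 groups, and most calls in either mutant fell in group II, which has the most tested members. In arf2, 0 of 8 tested members of group I, 5 of 15 of group II and 1 of 6 of group III were called lower. In gnc gnl, 2 of 8 members of group I, 7 of 15 of group II and 2 of 6 of group III were called higher. Of all tested genes 3.2% were called lower in arf2 and 12.6% higher in gnc gnl. The median log2 change of group II was -0.42 in arf2 and 0.55 in gnc gnl. In the values below, a level on an array is given as a percentage of the mean WT level of the same probe (the mean taken on the log2 scale). Changes are log2 differences between genotype means with the standard error (SE) of the limma fit, 3 arrays a genotype. With so few arrays, groups that do not overlap are common. In arf2, 10 of 29 members lay wholly below WT and 1 wholly above it, beside 2661 and 2206 of 19020 tested genes. In gnc gnl, 12 members lay wholly above WT and 1 wholly below it, beside 4204 and 3884 of all tested genes. Whole seedlings hold shoots and roots together, so fewer cells of a type and less RNA per cell cannot be told apart.

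XTH17 (AT1G65310), XTH18 (AT4G30280) and XTH23 (AT4G25810) of group II were called lower in arf2 and higher in gnc gnl. XTH17, a root-expressed enzyme that has been reported to act together with XTH31, was at 62.1%, 61.0% and 63.7% in arf2 and at 139%, 150.1% and 151% in gnc gnl, against 105%, 104% and 91.8% in WT. Every arf2 array lay below every WT array, and every gnc gnl array above them. The log2 change was -0.68 ± 0.09 in arf2 (limma adjusted p = 0.00196) and 0.55 ± 0.09 in gnc gnl (adjusted p = 0.00298). XTH18, a close relative of XTH17 known from the elongating primary root, was at 73.7%, 69.4% and 81.7% in arf2 and at 174%, 212% and 208% in gnc gnl, against 107.3%, 100.2% and 93.02% in WT. Again the groups did not overlap, and gnc gnl seedlings held 1.97 times the WT level (log2 change 0.98 ± 0.09, adjusted p = 1.35e-04). In arf2 the log2 change of XTH18 was -0.42 ± 0.09 (adjusted p = 0.0283). XTH23, also called XTR6, was at 55.8%, 49.1% and 78.0% in arf2 and at 219%, 252% and 283% in gnc gnl, against 100.4%, 99.7% and 99.9% in WT. The WT arrays were nearly equal, and arf2 replicate 3 lay closest to them among the arf2 arrays. XTH23 was 1.67-fold lower in arf2 (log2 change -0.74 ± 0.15, adjusted p = 0.0197) and higher in gnc gnl (1.32 ± 0.15, adjusted p = 4.42e-04). The arf2 call was kept under 24 of 25 alternative settings for XTH17, 16 for XTH18 and 18 for XTH23, always with the same sign. In gnc gnl each of these genes kept its call under 23 of 24 settings and lost it with slide as a fixed block.

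XTH24 (AT4G30270), XTH16 (AT3G23730) and XTH30 (AT1G32170) were called lower in arf2, and the gnc gnl level of each lay nearer to WT. XTH24, first described as the meristem gene MERI5, was at 39.8%, 38.9% and 61.0% in arf2, against 101%, 104% and 94.6% in WT. Its arf2 arrays lay far below the WT arrays, with replicate 3 the highest of them. It was 2.20-fold lower in arf2 (log2 change -1.14 ± 0.16, limma adjusted p = 0.00189). In gnc gnl XTH24 was at 121%, 104% and 123% (0.21 ± 0.16, adjusted p = 0.355), a change that turned to -0.20 ± 0.37 with slide as a block. XTH24 has 5 probes on the array, and their arf2 log2 changes ran from -1.14 to -0.95. XTH30 of group III was at 64.3%, 57.6% and 76.4% in arf2, against 105%, 95.4% and 99.4% in WT, with no overlap (log2 change -0.61 ± 0.10, adjusted p = 0.00452). XTH16 was at 59.3%, 66.2% and 70.5% in arf2, against 106%, 108% and 87.1% in WT, also with no overlap (-0.62 ± 0.16, adjusted p = 0.0475). XTH16 lay close to the threshold and kept its call under 9 of 25 alternative settings, always with the same sign, whereas XTH24 kept its call under 25 of 25.

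**Figure D2:**
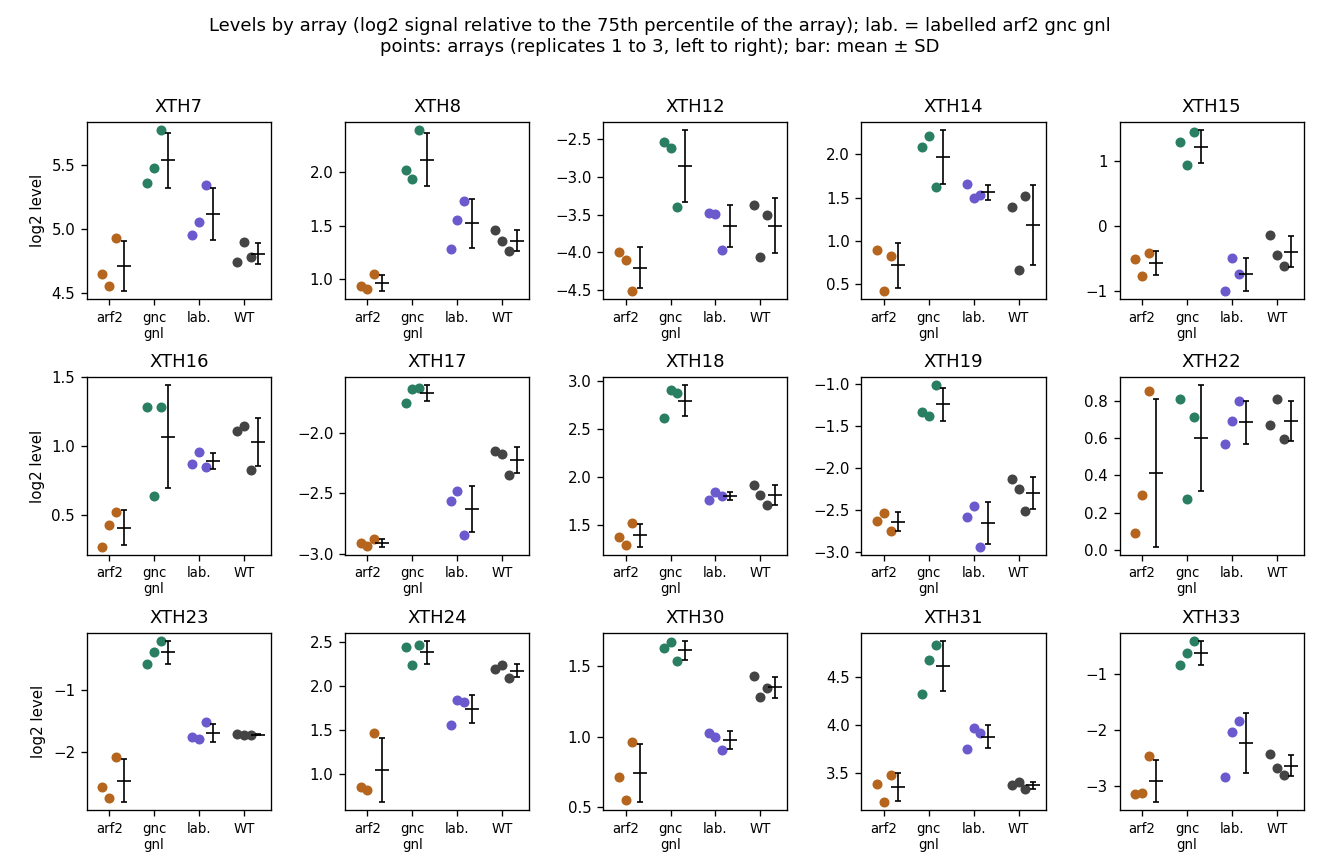
Log2 level (signal relative to the 75th percentile of the array) of the 14 XTH genes called in arf2 or gnc gnl against WT, and of XTH22, by genotype. Points are the 3 arrays of a genotype in replicate order, and the bar beside them is the mean ± SD. XTH17, XTH18 and XTH23 have arf2 below WT and gnc gnl above it, and the 4 genotypes of XTH22 overlap.

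Among the members called in gnc gnl, XTH33, XTH15, XTH23, XTH31 and XTH19 had the largest changes. With slide as a block the largest were instead those of XTH15 (1.69), XTH12 (1.59), XTH19 (1.48), XTH31 (1.23) and XTH14 (1.10), none of them called. XTH33 (AT1G10550), a member of group III known to stay attached to the plasma membrane, was at 348%, 401% and 469% in gnc gnl, against 115%, 97.2% and 89.5% in WT. The gnc gnl arrays all stood far above WT, at 4.03 times its level on average (log2 change 2.01 ± 0.25, limma adjusted p = 6.83e-04). In arf2, XTH33 was at 70.7%, 71.4% and 112%, which overlapped WT (-0.27 ± 0.25, adjusted p = 0.638). XTH15 (AT4G14130), known as XTR7 and from petiole growth in shade, was at 321%, 252% and 358% in gnc gnl, against 119.6%, 96.9% and 86.3% in WT. It was 3.07-fold higher (1.62 ± 0.17, adjusted p = 2.61e-04), and its other probe gave 1.58. In arf2 XTH15 overlapped WT at 92.4%, 77.1% and 98.9% (-0.17 ± 0.17, adjusted p = 0.677). XTH31 (AT3G44990) of group III, a predominantly hydrolytic enzyme of root cell walls, was at 194%, 247% and 276% in gnc gnl, against 99.9%, 103% and 97.5% in WT. The lowest gnc gnl array was well above the highest WT array (1.24 ± 0.12, adjusted p = 1.72e-04). In arf2 XTH31 had a log2 change of -0.02 ± 0.12, with a 95% interval of -0.29 to 0.25. XTH32, its nearest relative, was at 98.5%, 108% and 124% in gnc gnl, against 95.3%, 113% and 92.7% in WT, and was not called (0.13 ± 0.10, adjusted p = 0.359).

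XTH19 (AT4G30290), known together with XTH20 from the rejoining of cut stem tissue, was at 195%, 189% and 243% in gnc gnl, against 112%, 103% and 86.4% in WT. The groups did not overlap (log2 change 1.06 ± 0.14, limma adjusted p = 0.00101). XTH20 did not pass the test, at 98.1%, 95.5% and 63.6% in gnc gnl, against 114%, 84.5% and 104% in WT (-0.25 ± 0.20, adjusted p = 0.401). XTH7 (AT4G37800) and XTH8 (AT1G11545) were the 2 called members of group I. XTH7 was at 147%, 159.7% and 196% in gnc gnl, against 95.4%, 106% and 98.4% in WT (0.73 ± 0.14, adjusted p = 0.00436). XTH8 was at 158%, 149% and 206% in gnc gnl, against 107.4%, 99.9% and 93.2% in WT (0.76 ± 0.14, adjusted p = 0.00352). Neither gene overlapped WT in gnc gnl. XTH12 and XTH14, both known from roots, passed the test with wider spread. XTH12 was at 215%, 205% and 118% in gnc gnl, against 121%, 74.9% and 110.3% in WT (0.79 ± 0.26, adjusted p = 0.0439). XTH14 was at 186%, 205% and 135% in gnc gnl, against 115%, 69.4% and 126% in WT (0.79 ± 0.22, adjusted p = 0.0266). The third gnc gnl array of XTH12 lay within the WT range, and that of XTH14 just above it. XTH12 kept its call under 11 of 24 alternative settings and XTH14 under 18 of 24.

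Members that did not pass either test against WT made up the rest. TCH4, the touch-induced gene XTH22 (AT5G57560), was at 66.0%, 76.1% and 112% in arf2 and at 109%, 75.005% and 101% in gnc gnl, against 98.6%, 108% and 93.5% in WT. Both mutants overlapped WT. The 95% interval of its log2 change ran from -0.69 to 0.13 in arf2 and from -0.50 to 0.32 in gnc gnl. With slide as a block the XTH22 changes were -0.60 ± 0.24 in arf2 and -0.74 ± 0.40 in gnc gnl, neither of them called (adjusted p = 0.248 and 0.437). Of the 29 tested members, 6 had a log2 change above 0 in arf2 and 6 had one below 0 in gnc gnl. XTH25 stood against the direction of the called members, at 172%, 187% and 155% in arf2 and 81.8%, 67.8% and 83.2% in gnc gnl, against 86.1%, 117% and 99.5% in WT. All arf2 arrays of XTH25 lay above WT and all gnc gnl arrays below it, and neither difference passed the test (0.77 ± 0.25, limma adjusted p = 0.110 in arf2, and -0.37 ± 0.25, adjusted p = 0.301 in gnc gnl). XTH26, an enzyme of root hairs, was at 241%, 217% and 118% in gnc gnl, against 120.1%, 62.7% and 133% in WT, and narrowly missed the threshold (0.87 ± 0.30, adjusted p = 0.0569). In group I, XTH6 was at 48.3%, 59.9% and 96.4% in arf2, against 97.1%, 104% and 99.3% in WT (-0.61 ± 0.21, adjusted p = 0.125). XTH10 was uneven, with arf2 replicate 2 at 247% beside 96.2% and 85.1% in the other arf2 arrays. XTH28 of group III, known from stamens, was at 89.0%, 84.3% and 92.0% in arf2 and 97.5%, 82.8% and 90.6% in gnc gnl, against 102%, 105% and 92.7% in WT. Over the members not called, log2 changes ran from -0.61 (XTH6) to 0.77 (XTH25) in arf2 and from -0.37 (XTH25) to 0.87 (XTH26) in gnc gnl. XTH13 had no call and was dim on arf2 replicate 1 and on WT replicates 2 and 3.

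**Figure D3:**
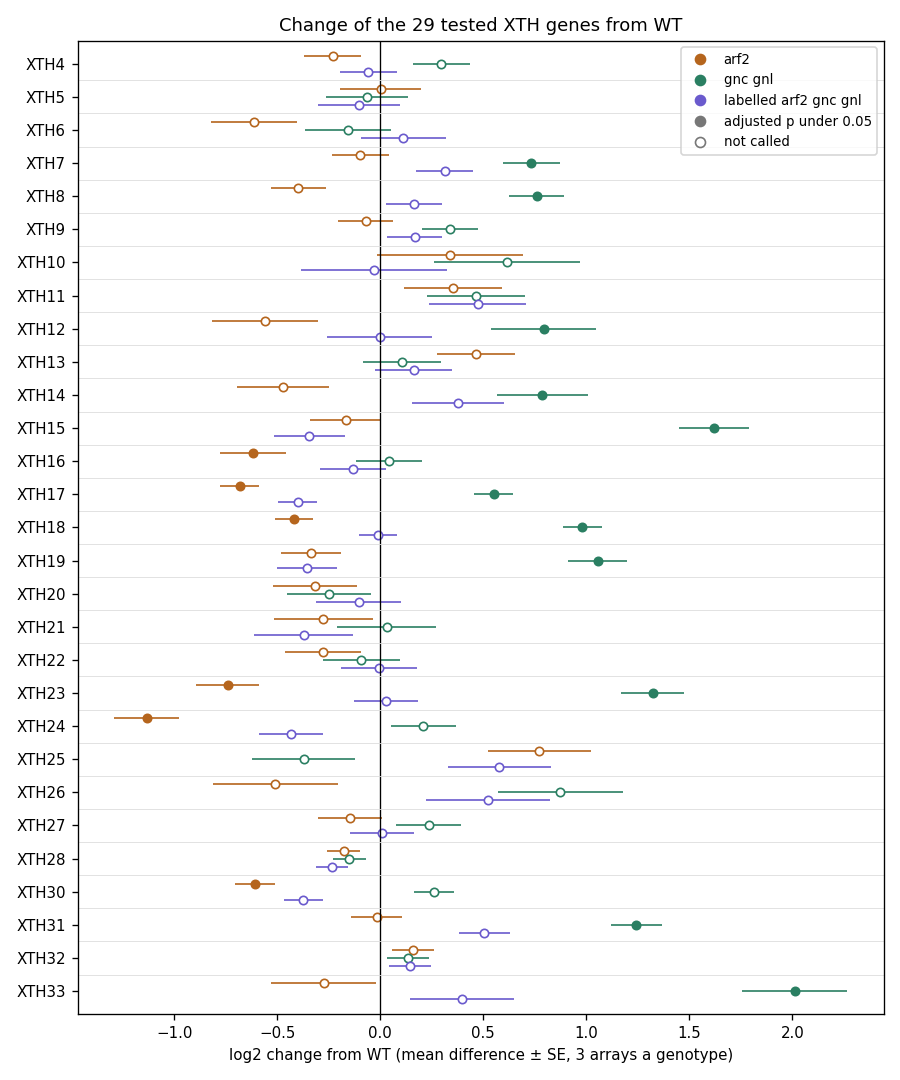
Log2 change from WT of each of the 29 tested XTH genes in arf2, gnc gnl and the libraries labelled arf2 gnc gnl (mean difference ± SE, 3 arrays a genotype). Filled points passed an adjusted p of 0.05. All filled gnc gnl points lie right of 0, up to 2.01 at XTH33, all filled arf2 points lie left of 0, down to -1.14 at XTH24, and no labelled point is filled.

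Set directly against each other, arf2 and gnc gnl differed in more members than either did from WT. In arf2, 17 of 29 members were lower and 1 was higher than in gnc gnl, where 19.5% of all tested genes were lower and 16.9% higher. The median log2 difference of the members was -0.66, against -0.0097 over all tested genes. The differences of the called members ran widest for XTH33 (-2.29 ± 0.25, limma adjusted p = 1.28e-04) and XTH23 (-2.06 ± 0.15, adjusted p = 1.31e-05). For XTH24 and XTH30 the difference was -1.34 ± 0.16 (adjusted p = 1.73e-04) and -0.87 ± 0.10 (adjusted p = 1.29e-04). For XTH31 it was -1.26 ± 0.12 (adjusted p = 6.48e-05). XTH4 and XTH9, both expressed in growing tissues, and XTH26 were lower in arf2 than in gnc gnl (-0.53 ± 0.14, -0.41 ± 0.13 and -1.38 ± 0.30, adjusted p = 0.0127, 0.0352 and 0.00537). XTH25 was the member higher in arf2 than in gnc gnl (1.14 ± 0.25, adjusted p = 0.00535). Ranked by genotype mean, gnc gnl was the highest of the 4 genotypes for 20 of 29 members (69.0%) and for 36.6% of all tested genes. The arf2 mean was the lowest for 19 of 29 members (65.5%) and for 30.1% of all tested genes. Without the labelled libraries 17 members were called between arf2 and gnc gnl, beside 33.6% of all tested genes. No slide held both arf2 and gnc gnl arrays. With slide as a fixed block 7 members were called, all lower in arf2 (XTH15, XTH17, XTH18, XTH19, XTH23, XTH30 and XTH31), where 2.18% of all tested genes were called. In that fit XTH33 (-1.57, adjusted p = 0.0884), XTH24 (-1.13, adjusted p = 0.0747) and XTH25 lost their calls.

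In the libraries labelled arf2 gnc gnl no member differed from WT by limma, where 2.26% of all tested genes did. At an unadjusted p under the same threshold 3 members were higher and 5 lower, beside 18.8% of all tested genes in either direction. Their median log2 change was -0.0031. XTH17 came nearest, at 79.2%, 83.9% and 65.2%, against 105%, 104% and 91.8% in WT (-0.40 ± 0.09, adjusted p = 0.0561). XTH31 stood at 129%, 152% and 146% of the WT mean, above all WT arrays (0.51 ± 0.12, adjusted p = 0.0640). Against arf2, 6 members were higher in the labelled libraries, namely XTH8, XTH14, XTH18, XTH23, XTH24 and XTH31, where 4.23% of all tested genes were higher. XTH24 was at 65.2%, 79.4% and 78.2% of the WT mean in the labelled libraries, against 39.8%, 38.9% and 61.0% in arf2 (0.70 ± 0.16, adjusted p = 0.0251). That count was 0 without arf2 replicate 1, arf2 replicate 2 or labelled replicate 2, where 0.915%, 0.694% and 0.815% of all tested genes were called. It was 1 without labelled replicate 3 (2.63% of all tested genes) and 11 without arf2 replicate 3 (14.7%). The full fit called 8.91% of all tested genes in that comparison. Against gnc gnl, 10 members were lower, where 6.39% of all tested genes were lower. XTH25 was higher (0.95 ± 0.25, adjusted p = 0.0353), where 5.28% of all tested genes were higher. XTH15 showed the widest gap, at 66.0%, 93.5% and 79.2% of the WT mean in the labelled libraries, against 321%, 252% and 358% in gnc gnl (-1.96 ± 0.17, adjusted p = 1.92e-04). In the interaction of both labels, XTH15, XTH18 and XTH19 were called, all below 0, where 1.13% of all tested genes were called below 0. What these libraries carry in place of their label was not tested.

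Part of the family lies in short runs of neighbouring genes, and neighbours did not always move alike. On chromosome 4, XTH24, XTH18 and XTH19 follow each other with no other protein-coding gene between them in the TAIR10.1 annotation. Their log2 changes in gnc gnl were 0.21, 0.98 and 1.06, of which the first was not called, and in arf2 -1.14, -0.42 and -0.34, of which the last was not called. XTH23 and XTH14 are also neighbours on chromosome 4, with 1.32 and 0.79 in gnc gnl, both called. On chromosome 5, XTH13, XTH25 and XTH22 adjoin, with XTH12 beyond 1 further gene. There XTH12 was called in gnc gnl, while XTH13, XTH25 and XTH22 gave 0.10, -0.37 and -0.09 and were not. Probe sequences were not used here, so that cross-hybridisation between close relatives could not be checked.

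The genes whose pattern over the 12 arrays was most like that of the 2 members with the largest F statistic are given as a description. The F statistic of XTH18 ranked 48th among the 19020 tested genes, and that of XTH17 ranked 85th. The genes most like XTH18 were XTH23 (Pearson r = 0.98), DPL1 (0.98) and SCPL34 (0.98). The genes most like XTH17 were DMP2 (0.97), the locus AT5G46060 (0.96) and the auxin-related SAUR36 (0.95). All points come from the same 12 arrays and share their scaling and slides.

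Among the other genes of the xyloglucan pathway, those that build the polymer were higher in gnc gnl in part. Of 17 tested synthesis genes, 6 were higher and 0 lower in gnc gnl than in WT, with a median log2 change of 0.21, beside 12.6% of all tested genes higher and 11.9% lower. CSLC4, the main glucan synthase of the xyloglucan backbone, changed by 0.93 ± 0.12 (limma adjusted p = 7.74e-04). The xylosyltransferase XXT5, which adds side-chain xylose, changed by 0.40 ± 0.07 (adjusted p = 0.00429), the acetyltransferase AXY4 by 0.37 ± 0.07 (adjusted p = 0.00614) and the galactosyltransferase MUR3 by 0.30 ± 0.08 (adjusted p = 0.0177). In arf2, 1 of these genes was higher and 0 were lower (2.48% and 3.2% of all tested genes), with a median of 0.0020. It was AXY4L, a relative of AXY4, at 1.24 ± 0.12 (adjusted p = 1.70e-04). In the labelled libraries AXY4L was also higher, at 0.76 ± 0.12 (adjusted p = 0.00793), where 1.32% of all tested genes were higher. Of 5 genes that trim xyloglucan after its synthesis, the galactosidase BGAL10 was higher in gnc gnl (0.30 ± 0.09, adjusted p = 0.0323), and none was called in arf2 or in the labelled libraries. Beside these, the XTH medians given above were lower in arf2 and higher in gnc gnl, and this difference between lists was not tested. No slide held both gnc gnl and WT arrays, and the synthesis and trimming genes were not examined with slide as a block.

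**Figure D4:**
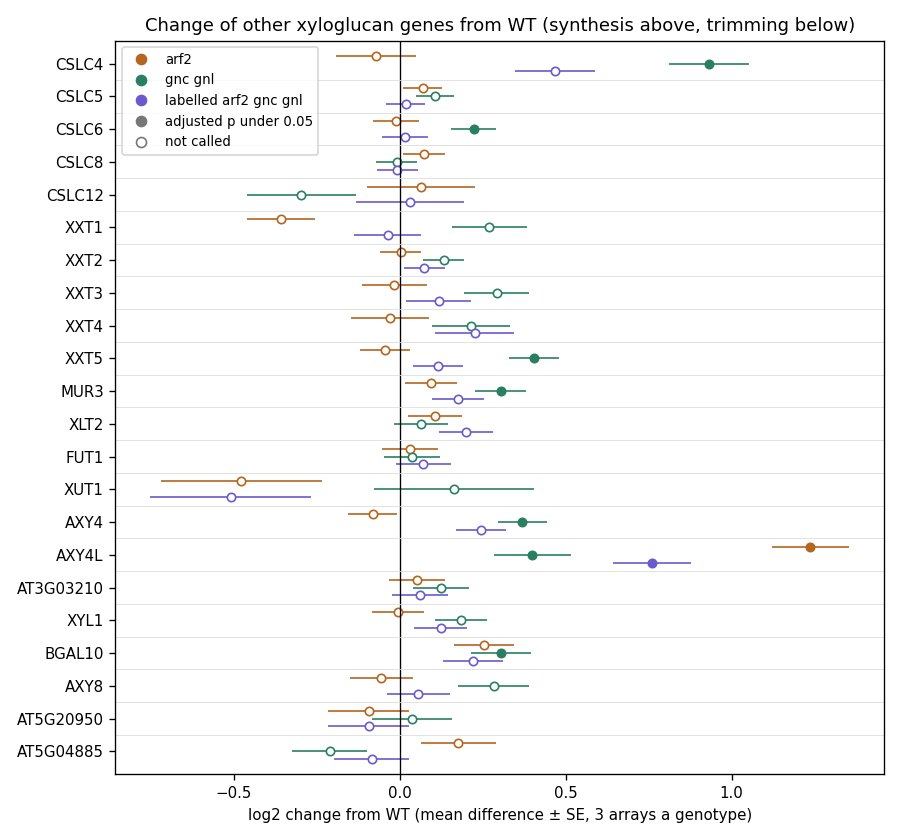
Log2 change from WT (mean difference ± SE, 3 arrays a genotype) of 17 xyloglucan synthesis genes and, from XYL1 down, 5 trimming genes in arf2, gnc gnl and the libraries labelled arf2 gnc gnl. Filled points passed an adjusted p of 0.05. CSLC4 is the furthest right in gnc gnl at 0.93, and AXY4L in arf2 at 1.24.

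Markers of the organs in the samples moved with the genotypes, and their part in the XTH results was not tested. The markers too were not examined with slide as a block. Of 8 root hair markers, 5 were higher in gnc gnl (12.6% of all tested genes) and 0 were called in arf2 (2.48% higher and 3.2% lower), and the median log2 change was 0.67 in gnc gnl and -0.46 in arf2. The expansin EXPA7 changed by 0.92 ± 0.22 in gnc gnl (limma adjusted p = 0.0128). Their summed signal, in multiples of the 75th percentile of the array, ran from 1.36 to 1.96 in arf2, 2.61 to 3.90 in gnc gnl, 1.82 to 2.13 in the labelled libraries and 1.61 to 2.54 in WT, so that every gnc gnl array lay above the WT arrays. Of 11 tested root markers, 3 were lower and none higher in arf2. The median log2 change was -0.25, and 3 of the 11 lay above 0, the highest being IRT1 (1.14 ± 0.44, adjusted p = 0.185). The lower ones included the Casparian strip genes CASP5 (-0.89 ± 0.15, adjusted p = 0.00672) and CASP4 (-0.84 ± 0.15, adjusted p = 0.00818). In gnc gnl all 11 lay above 0, with a median of 0.29, and CASP4 alone was called (0.70 ± 0.15, adjusted p = 0.00746). The mean log2 level of the 11 was 0.22 to 0.30 in gnc gnl and -0.14 to 0.13 in WT, without overlap. It was -0.34 to -0.03 in arf2 and -0.18 to -0.10 in the labelled libraries. The summed signal of all 12 root markers on the array overlapped between all mutants and WT except in the labelled libraries. It was 91.3 to 102 in arf2, 98.8 to 109.6 in gnc gnl, 85.6 to 89.2 in the labelled libraries and 94.8 to 102 in WT. Set against gnc gnl, 7 of the 11 were lower in arf2, beside 19.5% of all tested genes. Of 6 green shoot markers, 2 were lower in gnc gnl (11.9% of all tested genes), LHCB2.1 (-0.48 ± 0.09, adjusted p = 0.00437) and GLDP1 (-0.43 ± 0.12, adjusted p = 0.0283), and 0 were called in arf2. Their summed signal was 577 to 624 in arf2, 449 to 560.2 in gnc gnl, 438 to 521 in the labelled libraries and 472 to 556 in WT.

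**Figure D5:**
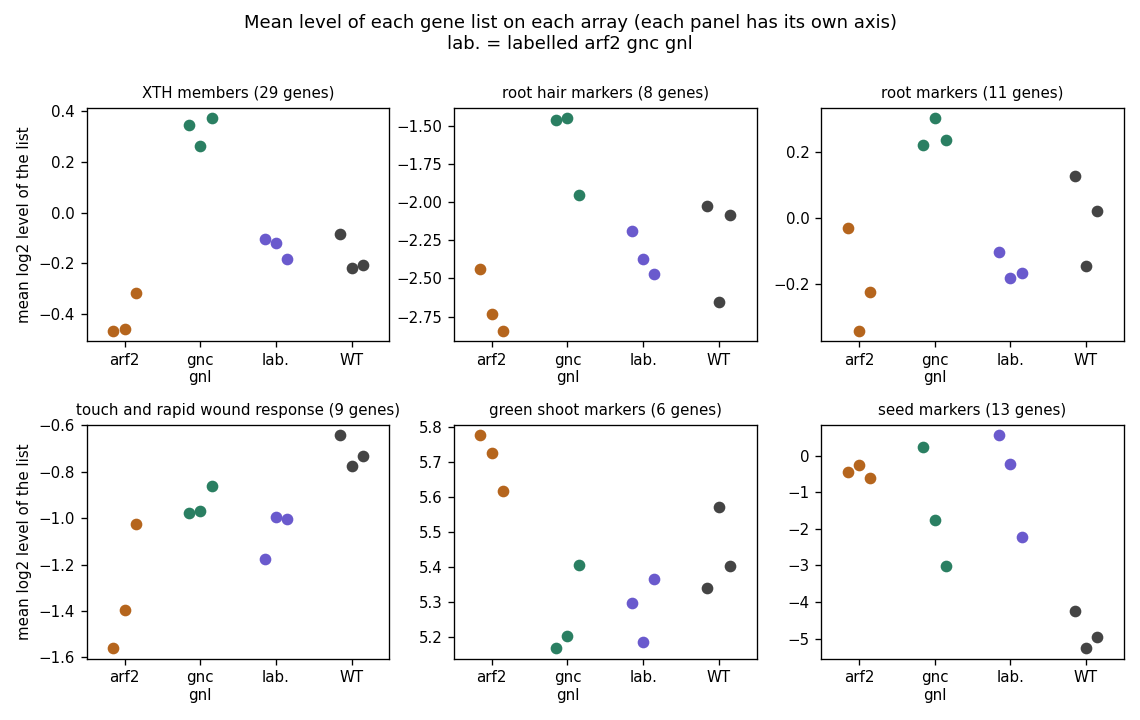
Mean log2 level (relative to the 75th percentile of the array) of the 29 tested XTH members and of 5 marker lists on each array, by genotype, 3 points a genotype and a separate axis in each panel. The XTH members and the root hair markers are highest on the gnc gnl arrays, and the seed markers are higher on every mutant array than on any WT array.

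Touch and rapid wound response genes, which share their inducibility with TCH4, were lower in arf2 for 5 of 9 tested members, beside 3.2% of all tested genes. They were CAF1A (-1.04 ± 0.18, limma adjusted p = 0.00807), WRKY40 (-1.13 ± 0.25, adjusted p = 0.0256), ZAT10 (-0.74 ± 0.16, adjusted p = 0.0271), SZF1 (-0.45 ± 0.10, adjusted p = 0.0313) and ZAT12. In gnc gnl 2 of these were lower, ZAT10 and SZF1, beside 11.9% of all tested genes. In the labelled libraries ZAT10 was lower, beside 0.936% of all tested genes. The summed signal of the touch and wound list was 4.66 to 6.11 in arf2, 6.38 to 6.84 in gnc gnl, 5.60 to 6.16 in the labelled libraries and 6.26 to 7.27 in WT. Of 8 brassinosteroid synthesis genes, 0 were called in arf2. In gnc gnl ROT3 was higher (0.54 ± 0.13, adjusted p = 0.0126) and BR6OX2 lower (-0.41 ± 0.10, adjusted p = 0.0153). That is 12.5% of the list in each direction, close to the 12.6% higher and 11.9% lower among all tested genes. Seed storage and late embryo genes, which mark seed material, were higher in all mutant groups, for 9 of 13 markers in arf2, 8 in gnc gnl and 8 in the labelled libraries, where 2.48%, 12.6% and 1.32% of all tested genes were higher. Their summed signal was 56.7 to 94.6 in arf2, 3.48 to 32.7 in gnc gnl, 16.1 to 54.4 in the labelled libraries and 1.66 to 2.30 in WT. The summed signal of all 33 XTH members was 94.6 to 121 in arf2 and 162 to 196 in gnc gnl. It was 121 to 138 in the labelled libraries and 116 to 126 in WT. By this sum the gnc gnl arrays lay above all others and the arf2 arrays overlapped WT. The sum adds linear signals, so bright members weigh most in it. In gnc gnl the mean log2 level was 5.54 for XTH7 and -0.62 for XTH33. The mean log2 level of the 29 tested members was -0.46 to -0.32 in arf2 and -0.22 to -0.09 in WT, without overlap. It was 0.26 to 0.37 in gnc gnl and -0.18 to -0.10 in the labelled libraries.

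The slide on which an array lay moved with the genotype, since no slide held both gnc gnl and WT arrays. With slide as a fixed block the comparison of gnc gnl with WT ran through the arf2 and labelled arrays. In that fit all 11 members called in gnc gnl kept their sign, with log2 changes from 0.30 to 1.69, and none was called (limma adjusted p = 0.111 to 0.690). The share of all tested genes called in that fit was 0.152%. Genes of the other lists were not examined in that fit. The block moved the log2 change of XTH33 to 1.07, XTH7 to 0.30, XTH8 to 0.39, XTH12 to 1.59 and XTH17 to 0.87. Within slide 3, the gnc gnl mean minus labelled replicate 3 ran from 0.19 to 1.96 on the log2 scale over these 11, which were chosen on the same gnc gnl arrays, so that its sign is no independent support. Labelled replicate 3 minus labelled replicates 1 and 2, which lay on another slide, ran from -0.49 to 0.60 over the same members. For arf2, replicate 1 shared slide 1 with WT, and its log2 difference from the WT mean within that slide ran from -1.33 to -0.44 over the 6 called members. It is 1 array, and these members were chosen with it. With slide as a block XTH17 and XTH24 kept their arf2 calls (adjusted p = 0.0133 and 0.0210), and XTH16 (-0.75), XTH18 (-0.44), XTH23 (-0.84) and XTH30 (-0.64) were not called, with log2 changes no smaller than without the block.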

How the data were processed

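The authors deposited 1 Agilent scanner file per sample, and its spot intensities are on a linear scale. The deposited intensity had the background subtracted and spatial trends removed array by array, as the statistics in the file headers show, with no scaling between arrays recorded there. Agilent Feature Extraction 10.7.3.1 is the tool in the submitters' processing notes. The intensity values deposited for the series were identical to the scanner values (0 cells differed). Saturation, outlier and background flags are other deposited columns of the same files.

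Control and outlier spots were dropped and repeat spots of a probe averaged, and log2 of the intensity minus log2 of the 75th percentile of its array was analysed. The 75th percentile lay between 2068 and 2871 intensity units, and no spot was saturated. Loci came from the RefSeq accession of the probe through an annotation of TAIR10.1. Since the array was designed on an older build, coordinates are not printed. Of 43603 probes, 34285 had a locus. The filter kept probes that some genotype had well above background on its 3 arrays, and that had 2 or more values in every genotype, and the tested probe with the highest mean stood for its locus. That left 19020 genes, with 756 missing values in 647 genes and none in the XTH members.

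One mean per genotype was fitted over 12 arrays with limma 3.58.1 in R 4.3.3 (lmFit and eBayes, 8 residual degrees of freedom). P-values were adjusted by Benjamini-Hochberg over all tested genes, with a threshold of 0.05, and ± is the SE. The number of arrays limits the precision. The comparisons were each mutant group with WT, the mutant groups with each other, and the interaction of both labels. The fit was tested on simulated data. Alternatives covered scaling, background, the filter, the probe rule, outlier spots, slide, replicate number, the samples in the fit and each array left out. Leaving out the libraries labelled arf2 gnc gnl was chosen after seeing the data. Figures were drawn with matplotlib 3.10.9.

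The XTH members and the gene lists were chosen with earlier results of these data known. Members called against WT are given in full, the 12 with the smallest p first, with XTH22 and XTH24 whatever their values, and other members by range with up to 4 examples a group. Of each list, up to 4 members with the smallest p are named for a comparison. XTH13, XTH20, ZAT12 and IRT1 were named outside this rule, after their values were seen. The values of 1 root marker are not reported here.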

Additional observations from a re-analysis of the deposited data

Results flagged for a closer look

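For 3 members the libraries labelled arf2 gnc gnl differed from the sum of the arf2 and gnc gnl changes, by limma's test of the interaction term, where 1.13% of all tested genes were called below 0. XTH15 gave an interaction of -1.80 ± 0.24 on the log2 scale (adjusted p = 0.00757), XTH19 one of -1.07 ± 0.20 (adjusted p = 0.0248) and XTH18 one of -0.57 ± 0.13 (adjusted p = 0.0492). In each case the level in the labelled libraries was below that sum. XTH15 was at 66.0%, 93.5% and 79.2% of the WT mean in those libraries and at 321%, 252% and 358% in gnc gnl, and 92.4%, 77.1% and 98.9% in arf2. XTH19 was at 82.1%, 90.0% and 64.5% in them and at 195%, 189% and 243% in gnc gnl, and 79.6%, 85.2% and 73.2% in arf2. All 3 values rest on these libraries, whose ARF2 and GNL probes go against their label, so that they do not measure an arf2 effect in a gnc gnl background. XTH15 kept its call under 21 of 22 alternative settings, XTH19 under 15 of 22 and XTH18 under 4 of 22, always with the same sign. The count of called members was 1 without WT replicate 2, WT replicate 3, arf2 replicate 1, arf2 replicate 2 or labelled replicate 1. These fits called 0.715% to 1.08% of all tested genes in either direction, against 2.64% in the full fit.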

How the results depend on the processing

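Of 2490 values of named members under 27 settings, 2292 kept their side of the threshold, 162 lost and 36 gained a call, and no called value changed sign. The calls depended most on slide as a fixed block, where the members called were 2 for arf2 with WT, 0 for gnc gnl with WT, 7 for arf2 with gnc gnl, 0 for the labelled libraries with arf2, 4 for them with gnc gnl and 0 for the interaction. Of all tested genes, that fit called 2.37%, 0.152%, 2.18%, 0.294%, 0.931% and 0.599% in the same comparisons. Of the values not called, XTH24 in gnc gnl turned to -0.20 with the block, against 0.21 without it. Within slide 1, arf2 (1 array) with WT gave 4, where 3.97% of all tested genes were called. Within slide 2 the labelled libraries with arf2 (2 arrays each) gave 0, and within slide 3 the labelled libraries (1 array) with gnc gnl gave 0, where 0.0894% and 0.00526% of all tested genes were called, so these counts of 0 say nothing about the members. A lone array was assumed to vary like the other group. With slide as a random block (correlation 0.028) no count of members moved by more than 1.5 times. For the labelled libraries with WT, quantile normalization gave 2 (2.7% of all tested genes). Normexp background correction together with quantile normalization gave 2 (3.83%), and a fit of those groups alone gave 2 (3.67%). For the labelled libraries with arf2, median scaling gave 3 (5.08%) and no filter on dim probes 12 (19.8%). The interaction without that filter gave 1 (0.912%). For these the cause was not tested. Leaving out 1 array gave 3 to 6 members for arf2 with WT, beside 2.32% to 7.72% of all tested genes. The count was 3 without WT replicate 1, WT replicate 2, arf2 replicate 1 or arf2 replicate 2. For gnc gnl with WT it was 9 to 12 (12.4% to 25.5% of all tested genes). For the labelled libraries with WT it was 0 to 2 (0.673% to 2.82%), and for arf2 with gnc gnl 17 to 19 (25.0% to 37.1%). For the labelled libraries it was 0 to 11 with arf2 (0.694% to 14.7%) and 8 to 12 with gnc gnl (4.6% to 12.6%). The interaction gave 1 to 4 (0.715% to 4.8%). Deviations of same-numbered samples from their genotype means correlated at -0.37 to 0.37 over 18 pairs (median 0.033), 7 of them over 0.1, so the numbers were not taken as pairs. With replicate number as a block 5 members were called for arf2 with WT, 11 for gnc gnl, 0 for the labelled libraries, 18 for arf2 with gnc gnl, 8 for the labelled libraries with arf2, 13 for them with gnc gnl and 2 for the interaction. XTH1, XTH2, XTH3 and XTH29 were too dim for a change to be measured.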
